A study of Homo sapiens with 6 samples.

Results

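The genes described here encode the ligands of the epidermal growth factor receptor and the receptors of the ERBB family, in PC3 cells, an established line of human prostate cancer cells that came from a bone metastasis. They were taken by name, and a gene was measured if a row of the expression table carried its symbol and no other. Of the 10 genes named, 8 were measured this way, out of 22465 genes in all: the ligands HBEGF, TGFA, EREG, EPGN, BTC and EGF, and the receptors EGFR and ERBB3. AREG and ERBB2 had no row of their own under this rule and were not analysed here. Among several rows of a gene, the row would have been selected on its mean over the 6 arrays, but each of the 8 genes had 1 row, so no measured value was used in that step. The genes were picked with earlier results of this comparison known, so how many of them changed is a description.

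The cells were transiently transfected with a Pre-miR precursor of miR-130a (3 arrays) or with a negative control precursor (3 arrays), and total RNA was read on Affymetrix arrays. The comparison asks which transcripts differ when cells receive more of miR-130a, one of the small RNAs that silence messenger RNAs paired with their seed. The series describes the 3 arrays of a group as independent experiments. All values come from 1 cell line and from a transient transfection, and the labels give no time between transfection and harvest.

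As background, the ligands are made as membrane-anchored precursors, are cut free by metalloproteinases of the ADAM family and bind the outer part of the receptors. Binding pairs 2 receptors, which phosphorylate each other and switch on the RAS-ERK and PI3K pathways, and ERK activity in turn induces inhibitors that limit the signal. HBEGF, TGFA, EREG, EPGN, BTC and EGF all bind EGFR, and HBEGF, EREG and BTC also bind ERBB4. ERBB2 has no known ligand of its own, and ERBB3, a receptor for neuregulins, has little kinase activity.

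To place the results on the genome, the sequence before the start site is shown for both genes that changed and, beside them, for TGFA and EREG, a pair of ligand genes that did not pass the test. The sequences are those of RefSeq on build GRCh38.p14, where 9 of the 10 genes matched. The table gives EGFR an upstream start on chromosome 7 and a further start inside the gene. No build is named for the array's rows in the labels, and the array data do not say which start was used. Each run covers 250 bases before the start, 5′ to 3′ on the gene's strand. Capitals mark matches, on either strand, to the AP-1 motif TGANTCA, the cyclic AMP response element TGACGTCA, the CCAAT box, the GC box GGGCGG or the TATA box TATAAA, and overlapping matches run together.
HBEGF, chr5:140346604-140346853, minus strand: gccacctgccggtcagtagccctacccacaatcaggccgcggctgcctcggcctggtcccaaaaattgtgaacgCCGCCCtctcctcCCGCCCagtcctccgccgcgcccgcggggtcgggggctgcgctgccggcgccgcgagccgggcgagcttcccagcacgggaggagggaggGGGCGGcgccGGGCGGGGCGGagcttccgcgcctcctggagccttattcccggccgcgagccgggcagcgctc
EGFR, upstream start, chr7:55018767-55019016, plus strand: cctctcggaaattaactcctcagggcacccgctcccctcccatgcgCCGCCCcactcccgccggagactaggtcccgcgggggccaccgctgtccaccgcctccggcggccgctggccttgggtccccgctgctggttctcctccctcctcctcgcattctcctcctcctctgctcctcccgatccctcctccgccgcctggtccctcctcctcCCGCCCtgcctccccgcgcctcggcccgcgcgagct
EGFR, start inside the gene, chr7:55109589-55109838, plus strand: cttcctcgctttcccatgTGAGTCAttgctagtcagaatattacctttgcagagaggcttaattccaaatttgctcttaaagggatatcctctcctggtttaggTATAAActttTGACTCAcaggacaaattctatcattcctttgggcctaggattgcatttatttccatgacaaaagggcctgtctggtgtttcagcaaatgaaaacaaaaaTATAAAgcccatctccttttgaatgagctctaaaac
TGFA, first listed start, chr2:70553827-70554076, minus strand: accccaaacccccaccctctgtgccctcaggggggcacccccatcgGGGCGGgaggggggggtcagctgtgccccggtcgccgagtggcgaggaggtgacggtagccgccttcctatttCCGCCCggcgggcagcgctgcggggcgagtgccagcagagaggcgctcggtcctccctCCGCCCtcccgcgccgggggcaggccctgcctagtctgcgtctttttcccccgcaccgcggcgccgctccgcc
EREG, chr4:74364895-74365144, plus strand: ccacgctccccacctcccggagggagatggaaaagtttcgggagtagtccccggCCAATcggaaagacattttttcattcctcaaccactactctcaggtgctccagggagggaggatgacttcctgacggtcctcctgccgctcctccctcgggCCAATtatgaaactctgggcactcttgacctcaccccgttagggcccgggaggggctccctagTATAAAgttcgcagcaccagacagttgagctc

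The windows differed in their G and C content and in their motifs. HBEGF, the upstream start of EGFR and TGFA lie in GC-rich sequence, at 76.4%, 73.6% and 75.6% G and C, against a median of 58% over all 35116 RefSeq windows of the same length. They hold 5, 2 and 3 matches to the GC box and no match to the other 4 motifs, and 42.6% of all windows hold a GC box. The inner EGFR start, at 38.8% G and C, holds 2 AP-1 matches, which begin 232 and 136 bases before the start, and AP-1 matches occur in 6.57% of all windows. It also holds 2 TATA matches. EREG, at 58% G and C, has 1 TATA match, beginning 32 bases before its start, and 2 CCAAT boxes. TATA matches occur in 10.7% of all windows and CCAAT boxes in 32%. The second listed start of TGFA, not shown, has 64% G and C and no match to any of the 5 motifs. The motifs were chosen with the results known, and a match shows only that the letters are there.

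The 6 arrays were compared on the authors' log2 values. Negative control 3 stood apart: it correlated with the other controls at r = 0.9923 and 0.992 over all rows, which is less than with miR-130a arrays 1 to 3 (0.9931 to 0.9935), and its median was 5.084, against 4.964 to 4.997 on the other 5 arrays. Across all genes, 950 of 22465 passed the test (4.23%), 558 higher with miR-130a (2.48%) and 392 lower (1.74%), and the median difference was -0.014. With each array centred on its median, 384 were higher and 136 lower, and without negative control 3, 1097 were higher and 1155 lower. The test was limma with Benjamini-Hochberg adjustment over all genes and a threshold of 0.05, differences are log2 values of miR-130a minus negative control, and SE is limma's moderated standard error. The mean log2 level of the epithelial markers KRT8, KRT18 and EPCAM lay between 9.06 and 9.12 on miR-130a arrays and between 8.91 and 8.92 on control arrays. KRT18 was itself higher with miR-130a (adjusted p = 0.018). KRT8 differed by 0.16 (adjusted p = 0.143) and EPCAM by -0.031 (adjusted p = 0.921), and neither passed. The mean of the leukocyte markers PTPRC, CD3E and CD14 lay between 4.35 and 4.37 on miR-130a arrays and between 4.35 and 4.47 on control arrays. The part of these markers in the results was not tested. The row of MIR130A, the gene of the transfected microRNA, averaged 3.66 ± 0.16 on miR-130a arrays and 3.37 ± 0.21 on control arrays (SD, n = 3 each) and did not pass (adjusted p = 0.265), and whether it reads the transfected precursor is not known here.

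HBEGF and EGFR rose with miR-130a, by 1.92-fold and 1.30-fold, and the other 6 measured genes did not pass the test. The pair that rose is a ligand and its own receptor: HBEGF encodes a heparin-binding member of the ligand family. Among all genes 2.48% rose, and since the genes were picked with these results known, nothing is read from the 2 of 8. The median difference was 0.083 over the 8 genes, against -0.014 over all genes. The values of the 2 groups did not overlap for HBEGF, EGFR and EGF, 3 of 8 genes, a pattern shown by 23.6% of all genes. In all 3 the miR-130a values were the higher ones, as in 11.7% of all genes.

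**Figure D1:**
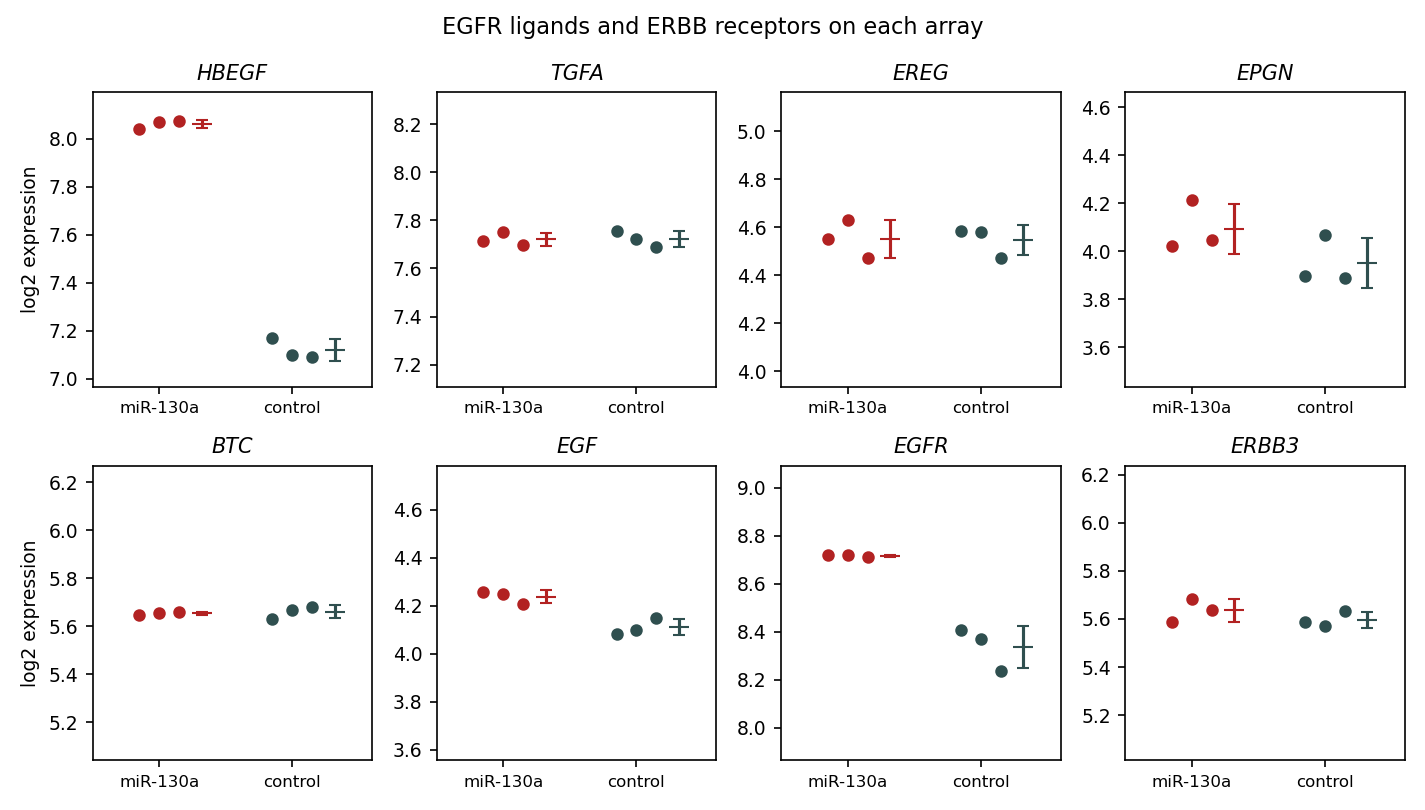
Log2 expression of the 6 ligand and 2 receptor genes on each array; points are arrays, miR-130a at the left of each panel and negative control at the right, in the order of their replicate numbers, bars are mean ± SD (n = 3), and every panel spans the same number of log2 units. HBEGF lies above 8.04 on the miR-130a arrays and below 7.18 on the controls, EGFR shows a smaller gap, and the other genes overlap except EGF.

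HBEGF had log2 values of 8.04, 8.07 and 8.07 on the miR-130a arrays, against 7.17, 7.10 and 7.09 on negative controls 1, 2 and 3. All miR-130a arrays were high, and the gap between the groups, 0.87, was over 10 times the spread within either group (0.030 with miR-130a and 0.081 in controls). The means were 8.06 ± 0.016 and 7.12 ± 0.044 (SD, n = 3 each), a difference of 0.94 (SE 0.049, 95% interval 0.83 to 1.05, adjusted p = 0.000262, limma). It had the 9th smallest p of all 22465 genes and the 26th largest rise. The call held under all 14 alternatives, including without negative control 3 (difference 0.92, adjusted p = 0.00103, within a range of 6.22e-06 to 0.00451 over the alternatives).

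EGFR, the receptor of all 6 measured ligands, had values of 8.72, 8.72 and 8.71 on the miR-130a arrays, against 8.41, 8.37 and 8.24 on negative controls 1, 2 and 3. The miR-130a arrays were nearly level with each other, the groups did not overlap, and negative control 3 was the lowest of all. The means were 8.72 ± 0.0037 and 8.34 ± 0.088 (SD, n = 3 each), a difference of 0.38 (SE 0.058, 95% interval 0.24 to 0.52, adjusted p = 0.0135, limma). Without negative control 3 the difference was 0.33 (adjusted p = 0.00697). The call was lost without miR-130a 1, 2 or 3, at adjusted p = 0.0833, 0.0707 and 0.0818, although the difference stayed at 0.38 in each, and when all rows of the table were tested (adjusted p = 0.0744; range over the alternatives 0.000274 to 0.0833). EGFR-AS1, an antisense RNA gene that overlaps EGFR, differed by -0.022 (SE 0.096, adjusted p = 0.973).

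**Figure D2:**
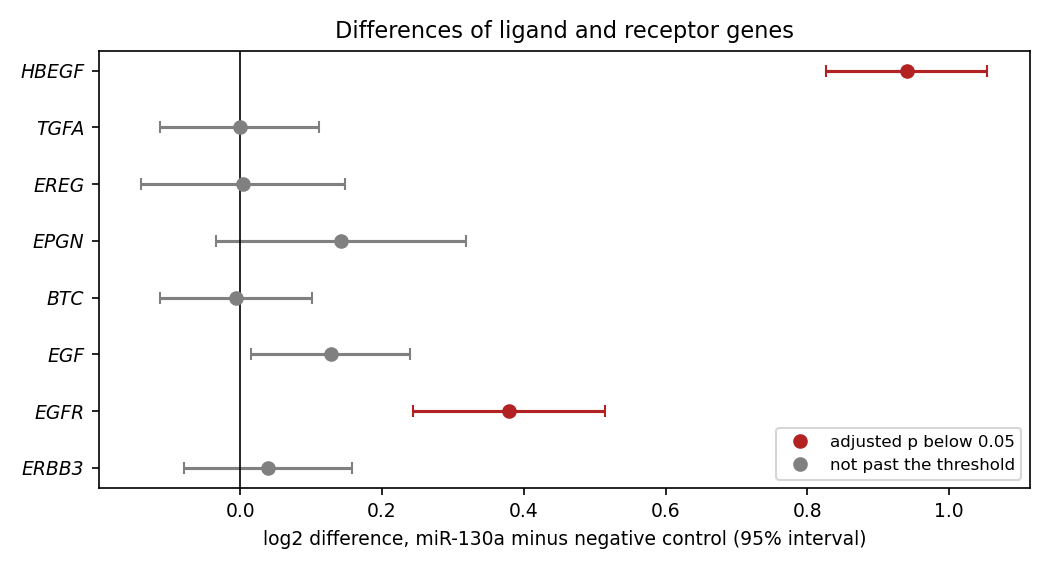
Log2 difference of each gene, miR-130a minus negative control, with its 95% interval from limma; red marks an adjusted p below 0.05 and the vertical line marks no difference. The intervals of HBEGF (0.83 to 1.05) and EGFR (0.24 to 0.52) lie well above 0, and those of TGFA, EREG, BTC and ERBB3 are centred near it.

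TGFA, which encodes transforming growth factor alpha, a ligand specific for EGFR, had values of 7.71, 7.75 and 7.70 on the miR-130a arrays, against 7.75, 7.72 and 7.69 on the controls. The groups overlapped fully, with a difference of -0.0009 (95% interval -0.11 to 0.11, adjusted p = 0.999), so the interval leaves room for a change of at most 0.11 in either direction at this confidence. Its interval does not meet that of HBEGF, although the difference between the genes was not tested.

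EREG, the gene of epiregulin, which also binds ERBB4, had values of 4.55, 4.63 and 4.47 on the miR-130a arrays, against 4.59, 4.58 and 4.47 on the controls. Its difference was 0.0039 (95% interval -0.14 to 0.15, adjusted p = 0.995). EPGN, which encodes epigen, read 4.02, 4.21 and 4.05 on the miR-130a arrays, against 3.90, 4.07 and 3.89 on the controls. The groups overlapped through miR-130a 1 and 3, which lay below negative control 2, and the difference of 0.14 (95% interval -0.034 to 0.32) did not pass (adjusted p = 0.431). BTC, the gene of betacellulin, read 5.65, 5.65 and 5.66 on the miR-130a arrays, against 5.63, 5.67 and 5.68 on the controls, and its difference was -0.0061 (95% interval -0.11 to 0.10, adjusted p = 0.986). EPGN, EREG, AREG and BTC are consecutive protein-coding genes on chromosome 4 in the RefSeq order, and none of the 3 measured here passed the test.

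EGF, the gene after which the family is named, lies elsewhere on chromosome 4. Its row read 4.26, 4.25 and 4.21 on the miR-130a arrays, against 4.08, 4.10 and 4.15 on the controls. The groups did not overlap, but the gap of 0.061 was about the size of the spread within each group, 0.049 with miR-130a and 0.064 in controls, and the difference of 0.13 (SE 0.048, 95% interval 0.015 to 0.24) did not pass (adjusted p = 0.232). The rows of EREG, EPGN and EGF lay below 4.995, the median level of all rows, on every array. No detection calls were used here, so whether these 3 rows stand above background is not known.

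ERBB3 read 5.59, 5.68 and 5.64 on the miR-130a arrays, against 5.59, 5.57 and 5.63 on the controls. The groups overlapped, and the difference of 0.039 (SE 0.051, 95% interval -0.080 to 0.16) did not pass (adjusted p = 0.849). The receptor ERBB4 and the neuregulins, which bind ERBB3, ERBB4 or both, were measured in all 5 genes of their list. None passed, nor did any at an unadjusted p below 0.05 (limma). NRG2 differed by -0.11 (adjusted p = 0.346), NRG3 by -0.051 (adjusted p = 0.856), NRG1 by -0.037 (adjusted p = 0.873) and ERBB4 by 0.026 (adjusted p = 0.934), and the list's median was -0.037. Of the 5 genes, 4 lay below 4.995 on every array, all but NRG2, so the same limit of dim rows holds for them.

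The protein-coding genes next to HBEGF on chromosome 5 did not pass the test: PFDN1 and CYSTM1 on one side differed by 0.035 and -0.039, and SLC4A9 on the other by -0.022. IGIP, which follows beyond CYSTM1, differed by -0.24 (SE 0.13) and did not pass either (adjusted p = 0.411, limma). Beside EGFR on chromosome 7, LANCL2 and VOPP1 on one side differed by 0.075 and -0.036, and POM121L12 on the other by -0.078. None of them passed either. These neighbours, the nearest protein-coding genes in RefSeq order with a row, were named after their values were seen.

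By Pearson correlation over the 6 arrays, the genes most like HBEGF were the amino acid transporter gene SLC7A5 (r = 0.9996), the ubiquitin ligase scaffold gene CUL4A (r = 0.9995) and SPTSSB (r = 0.9993), which encodes a small subunit of serine palmitoyltransferase. SLC7A5 rose 1.59-fold (adjusted p = 0.000911) and SPTSSB 1.68-fold (adjusted p = 0.000764), whereas CUL4A differed by 0.11 (adjusted p = 0.247). Those most like EGFR were the integrin gene ITGB8 (r = 0.9988), TSC22D2 and the cyclin gene CCNJ (r = 0.9983 each), which rose 1.44-fold, 1.37-fold and 1.26-fold (adjusted p = 0.00904, 0.00756 and 0.018). With 6 points in 2 separate groups, such an r is set largely by the group means, and it is given as a description.

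Among genes that release or process the ligands, ADAM9 and ADAM12 fell and none rose. Of the 21 measured of 22, the other 19 did not pass, where 1.74% of all genes fell and 2.48% rose, and the median difference was -0.018, against -0.014 over all genes. ADAM9 and ADAM12 encode metalloproteinases reported to cut the HB-EGF precursor, and both genes differed in the direction opposite to HBEGF. ADAM17, described below, differed by 0.34 in the same direction as HBEGF and did not pass (adjusted p = 0.0587, limma). The list was chosen with earlier results known, so nothing is read from these directions. ADAM9 had values of 9.25, 9.27 and 9.27 on the miR-130a arrays, against 9.72, 9.71 and 9.62 on the controls, 1.34-fold lower (difference -0.42, SE 0.051, adjusted p = 0.00507). ADAM12 had values of 6.52, 6.62 and 6.51 on the miR-130a arrays, against 7.19, 7.03 and 6.95 on the controls, 1.42-fold lower (difference -0.51, SE 0.072, adjusted p = 0.0105).

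ADAM17, the main sheddase of HB-EGF, TGF-alpha, amphiregulin and epiregulin, read 8.46, 8.44 and 8.53 on the miR-130a arrays, against 8.16, 8.27 and 7.98 on the controls. Its groups did not overlap, the controls were spread more widely than the miR-130a arrays, and the difference of 0.34 (SE 0.079) missed the threshold (adjusted p = 0.0587). It passed under 6 of the 14 alternatives (range of adjusted p over the alternatives 0.000906 to 0.237). It did so without negative control 2 (difference 0.41, adjusted p = 0.0424) or 3 (0.26, adjusted p = 0.0334). The others were dim genes left out, a second quantile normalization, array weights, and the trend and robust options. ADAM10, the main sheddase of EGF and betacellulin, differed by -0.0031 and was named after its values were seen, as were the iRhom genes RHBDF1 (0.099) and RHBDF2 (0.037), whose products carry ADAM17 to the cell surface. CNIH1, a cargo receptor of the early secretory pathway, differed by -0.16 (adjusted p = 0.166). ADAM12 lost its call without miR-130a 1 or 3 (adjusted p = 0.0644 and 0.0658; range 9.85e-05 to 0.0658), which left 1 called gene in the list, and 3 were called without negative control 2 or 3.

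**Figure D3:**
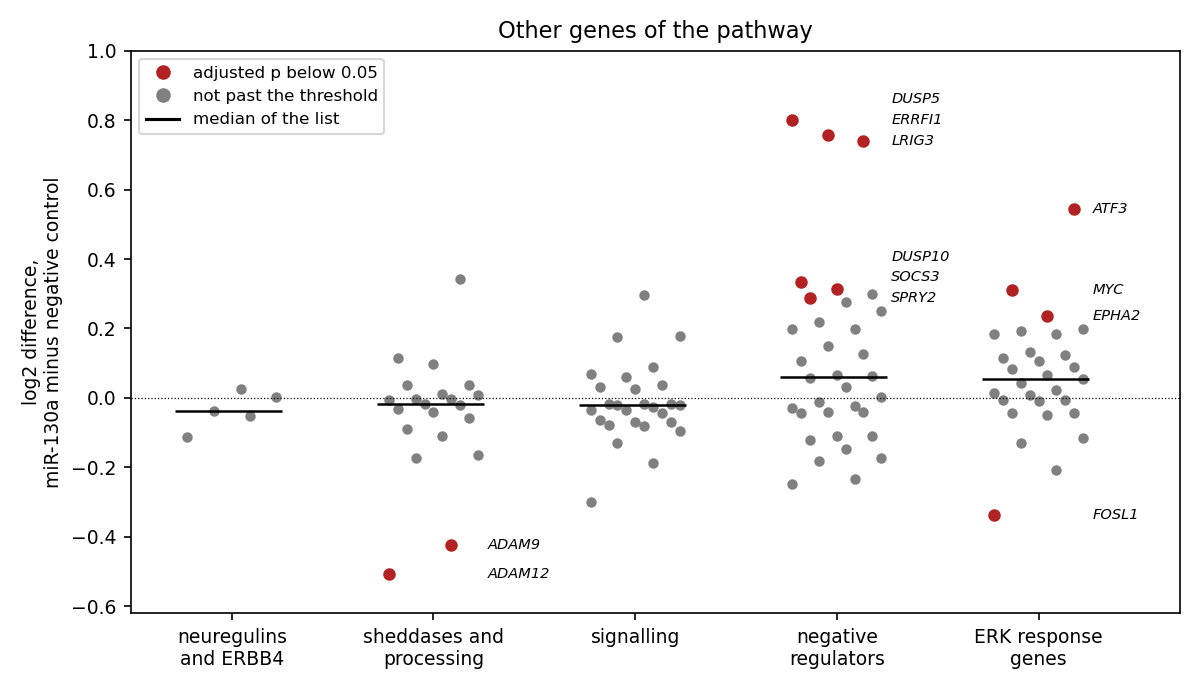
Log2 differences, miR-130a minus negative control, of every measured gene of 5 lists of the pathway; each point is a gene, red marks an adjusted p below 0.05 and is named, and black lines are list medians. The list of negative regulators holds the largest rises, DUSP5, ERRFI1 and LRIG3 between 0.74 and 0.80, and no signalling gene or neuregulin is marked.

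Of the adaptors, RAS and RAF proteins, ERK and PI3K kinases and other signalling genes, 27 of 35 were measured and none passed. At an unadjusted p below 0.05 (limma) 5 differed, 18.5% of the list, against 16.5% of all genes. The median difference was -0.021. PIK3CB, a catalytic subunit of PI3K, differed by -0.30 (adjusted p = 0.0774), RPS6KA3, which encodes the ERK-activated kinase RSK2, by 0.30 (adjusted p = 0.0987), and the adaptor genes GAB1 and SHC1 by 0.18 and -0.19 (adjusted p = 0.156 and 0.162). Without negative control 3, 4 of these genes passed, 1 higher and 3 lower, among them PIK3CB (adjusted p = 0.00513) and RPS6KA3 (adjusted p = 0.0396).

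The list of negative regulators of EGFR or of ERK and related kinases held the largest rises of these lists. It was drawn up from textbook knowledge, and some of its genes, LRIG3 among them, are not established inhibitors of EGFR. Of 35 genes, 34 were measured, 6 rose, none fell and 28 did not pass, where 2.48% of all genes rose and 1.74% fell. Without negative control 3, 9 rose and 4 fell. The median difference was 0.061, 21 of the 34 genes had groups that did not overlap (23.6% among all genes), and 14 of the 34 had differences below 0. The lists were chosen with earlier results of these data known, so nothing is read from these counts.

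ERRFI1, whose product MIG6 binds the EGFR kinase and blocks it, had values of 11.85, 11.73 and 11.92 on the miR-130a arrays, against 11.09, 11.07 and 11.07 on the controls. All miR-130a arrays were high, and ERRFI1 rose 1.69-fold (difference 0.76, SE 0.060, adjusted p = 0.00127). DUSP5, a phosphatase of nuclear ERK that ERK signalling induces, had values of 9.20, 9.15 and 9.27 on the miR-130a arrays, against 8.39, 8.47 and 8.37 on the controls, and rose 1.74-fold (difference 0.80, SE 0.056, adjusted p = 0.000843). LRIG3, a member of the LRIG family of leucine-rich repeat membrane proteins, had values of 7.23, 7.25 and 7.19 on the miR-130a arrays, against 6.62, 6.45 and 6.38 on the controls, and rose 1.67-fold (difference 0.74, SE 0.069, adjusted p = 0.00244). These 3 calls held under all 14 alternatives.

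SPRY2, a Sprouty protein that limits RAS-ERK signalling, rose less: it read 8.18, 8.09 and 8.17 on the miR-130a arrays, against 7.82, 7.91 and 7.84 on the controls, 1.22-fold higher (difference 0.29, SE 0.053, adjusted p = 0.027). DUSP10 and SOCS3, which the naming rule does not cover and which were chosen after their values were seen, rose 1.26-fold and 1.24-fold (adjusted p = 0.0282 and 0.0287). DUSP10 is known chiefly as a phosphatase of JNK and p38, and SOCS3 as a feedback inhibitor of cytokine receptors. Other Sprouty and dual-specificity phosphatase genes, also named after their values were seen, lay on both sides of 0 and did not pass: SPRY1 differed by 0.22 (adjusted p = 0.0766) and DUSP1 by 0.20 (adjusted p = 0.113), SPRY4 by -0.023, DUSP6 by -0.042 and DUSP4 by -0.15. SPRY2, DUSP10 and SOCS3 lost their calls without negative control 1 (adjusted p = 0.106, 0.0703 and 0.109) and when miR-130a 1, 2 or 3 was left out (0.0814 to 0.156), which left 3 rises in the list, whereas 13 genes, 9 higher and 4 lower, were called without negative control 3.

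**Figure D4:**
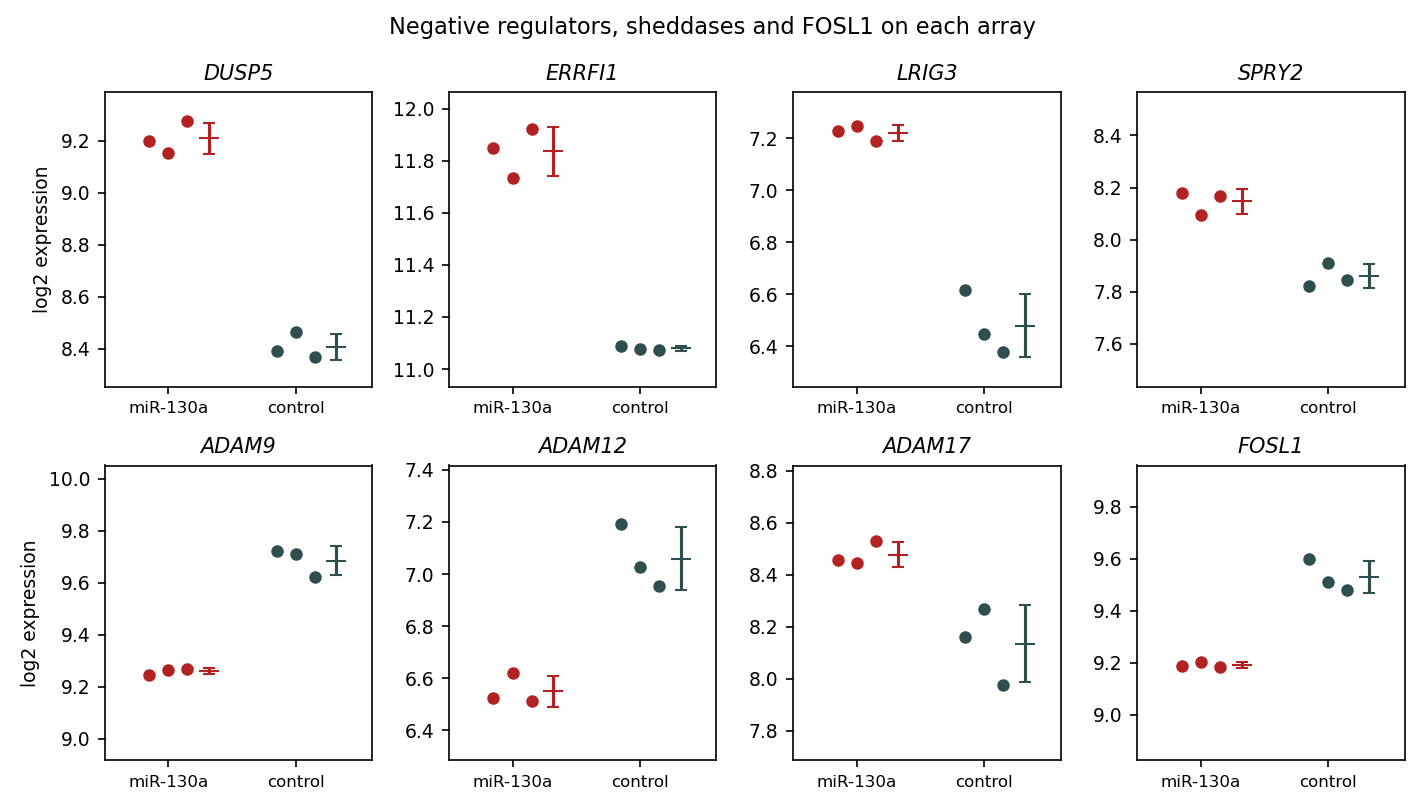
Log2 expression on each array of 4 genes of the negative regulator list, 3 sheddases and FOSL1. Points are arrays, miR-130a at the left of each panel and negative control at the right. Bars are mean ± SD (n = 3), and every panel spans the same number of log2 units. DUSP5, ERRFI1 and LRIG3 are higher on all miR-130a arrays, ADAM9, ADAM12 and FOSL1 lower, and the ADAM17 controls are spread from 7.98 to 8.27.

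The list of 30 ERK response genes held genes that ERK signalling induces and some transcription factors that act in the response. Of these, 29 were measured, 3 rose and 1 fell, and 25 did not pass, with a median difference of 0.054. Among all genes 2.48% rose and 1.74% fell. ATF3, which stress pathways induce as well, rose 1.46-fold (difference 0.54, SE 0.082, adjusted p = 0.0124). MYC, the growth-promoting transcription factor gene, rose 1.24-fold (difference 0.31, SE 0.049, adjusted p = 0.0146), and the receptor tyrosine kinase gene EPHA2 1.18-fold (difference 0.24, SE 0.047, adjusted p = 0.0352). FOSL1, which encodes the AP-1 subunit FRA1, went the other way: it read 9.19, 9.20 and 9.19 on the miR-130a arrays, against 9.60, 9.51 and 9.48 on the controls, 1.26-fold lower (difference -0.34, SE 0.052, adjusted p = 0.014). The immediate early genes EGR1 and FOS, named after their values were seen, differed by 0.013 and -0.010 and did not pass. All 4 calls were lost when miR-130a 1, 2 or 3 was left out (adjusted p = 0.052 to 0.184), MYC alone was called without negative control 1, and 8 genes, 7 higher and 1 lower, were called without negative control 3.

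**Figure D5:**
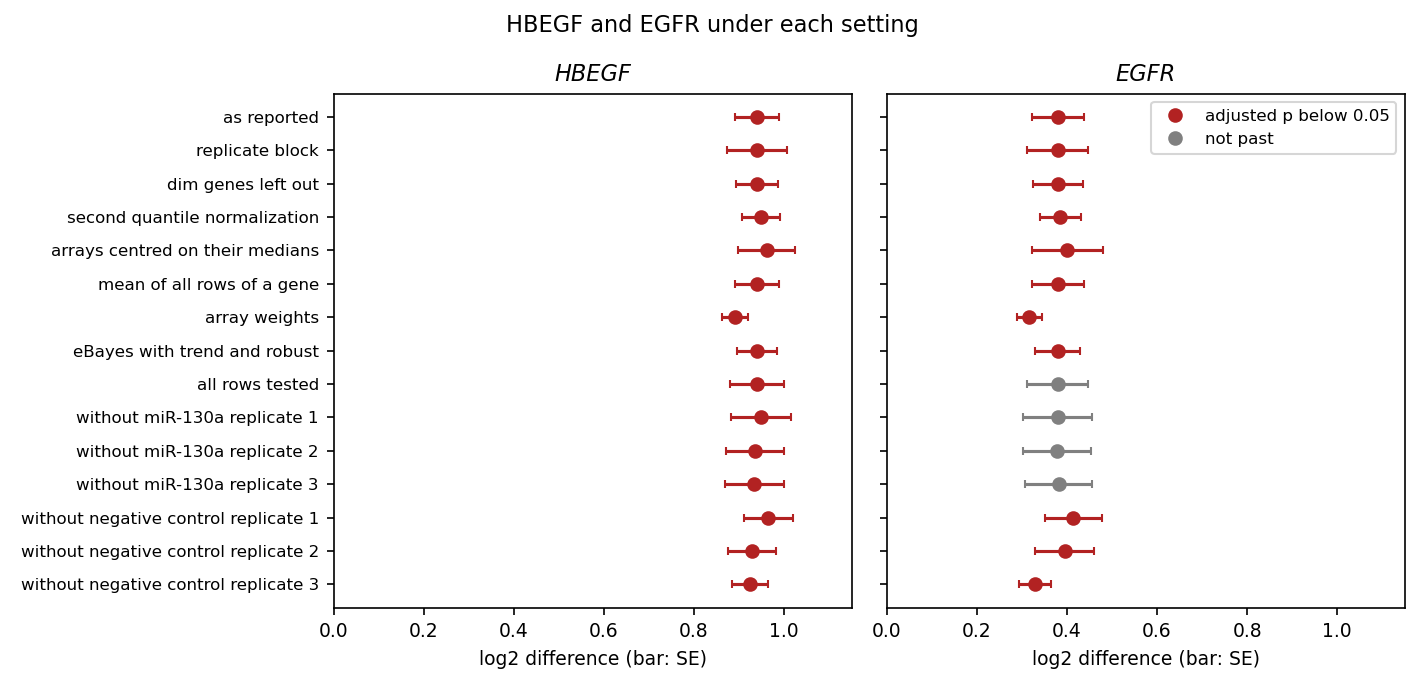
Log2 difference of HBEGF (left) and EGFR (right) as reported and under each of 14 alternatives; points are estimates, bars are SE, and grey marks an adjusted p not below 0.05. The estimates span 0.89 to 0.97 for HBEGF and 0.32 to 0.41 for EGFR, and EGFR missed the threshold in 4 of the settings.

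In a bulk culture, more cells that express a gene and more RNA per cell cannot be told apart. The values were normalized between arrays, so each difference is relative to the other transcripts of the same array. The number of arrays limits the precision, and the array measures RNA, so nothing was measured of shed ligand or of receptor phosphorylation.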

How the data were processed

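Expression was measured in 6 cultures of PC3 cells, 3 with miR-130a and 3 with the negative control, grouped by the labels. The deposited table holds log2 values that, per the submitters' processing notes, the authors made with RMA and Affymetrix Expression Console. RMA corrects background, quantile-normalizes arrays and summarizes probes. The log2 scale was read from the range of the values. No build is named in the labels.

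Of 70753 rows, 67528 held values, and 23781 had 1 gene symbol in the platform annotation. For genes with several rows (479), the row with the highest mean over the 6 arrays was kept, which gave 22465 genes. limma (version 3.58.1, R 4.3.3) was fitted with lmFit and eBayes, two-sided, with Benjamini-Hochberg adjustment over all genes and a threshold of 0.05. The fit was tested on simulated data.

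The genes and lists were chosen with earlier results of these data known. Named genes are the 10 ligand and receptor genes, the 4 genes of each list with the smallest p, the 3 genes most correlated with each ligand or receptor gene that passed, and MIR130A. Alternatives were a replicate block, leaving out dim genes (mean not above 4.995), centring of each array on its median, quantile normalization repeated, averaging a gene's rows, array weights, trend and robust options of eBayes, testing all rows, and leaving out each array.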

Additional observations from a re-analysis of the deposited data

How the results depend on the processing

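Under the 14 alternatives HBEGF, ERRFI1, DUSP5, LRIG3 and ADAM9 kept their direction and their call. The count of all genes called was 520 with arrays centred on their medians (73.8% of them higher, against 58.7% as reported), 7658 with array weights (46.4% higher), 1449 with the trend and robust options, 277 when all rows were tested (72.9% higher), and 237 to 2252 with 1 array left out, the highest without negative control 3 (48.7% higher). The estimation of array weights stopped before it converged. The ligand and receptor genes called numbered 4 with array weights (EGF and EPGN were added, adjusted p = 0.00483 and 0.0411), 1 when all rows were tested and 1 to 2 with 1 array left out. Array weights called 1 neuregulin gene, 9 sheddase and processing genes, 10 signalling genes, 20 negative regulators (13 higher, 7 lower) and 12 ERK response genes. With all rows tested the last 2 lists held 3 and 0 called genes and the sheddases 1. With dim genes left out they held 10 and 7 and the signalling genes 1, and with trend and robust options 10 and 8 and the signalling genes 2. The ERK response genes numbered 7 after a second quantile normalization and 2 after median centring. With 1 array left out, the counts ran from 0 to 0 for neuregulins and ERBB4, 1 to 3 for sheddases, 0 to 4 for signalling genes, 3 to 13 for negative regulators and 0 to 8 for ERK response genes. Among the fits with 1 array left out, the last 3 lists had their highest counts without negative control 3. The cause of these shifts was not tested.

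Some differences near 0 that did not pass changed sign and did not pass there either. With 1 array left out, TGFA ran from -0.018 to 0.015, EREG from -0.035 to 0.044, BTC from -0.021 to 0.0044, NRG3 from -0.097 to 0.020, NRG1 from -0.065 to 0.0031 and ERBB4 from -0.0067 to 0.076. TGFA was at 0.0070 after a second quantile normalization and 0.020 after centring, BTC at 0.0079, 0.015 and, with array weights, 0.019. Array weights put EREG at -0.035 and NRG3 at 0.0003.

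With the replicate number as a block, 818 genes and 2 ligand and receptor genes were called. SPRY2 and EPHA2 were not called (adjusted p = 0.0626 and 0.0971). Deviations of same-numbered arrays from their group means correlated at -0.067, 0.058 and 0.089 over genes, against -0.148 to 0.159 for other pairs, so the numbers were not taken as pairs, and miR-130a 2 correlated best with negative control 1. A second quantile normalization and centring shifted the median of all genes by less than 0.1. The number of arrays and the lack of detection calls limit what dim rows can show.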
